A study of Mus musculus with 2 samples.

Results

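The regulatory T cell identity genes described here are 10 genes, Foxp3, Il2ra, Ikzf2, Ikzf4, Izumo1r, Il10, Areg, Il1rl1, Itgae and Capg. They were chosen by symbol from the 31253 genes listed in both libraries, and all 10 were found. The cells were CD45-positive cells from the brains of C57BL/6 mice carrying GL261, a mouse glioma line injected into the brain. The PBS library came from mice dosed with PBS by gavage, and the ibudilast library from mice dosed with ibudilast at 20 mg/kg, both 5 times per week for 2 weeks. Ibudilast blocks phosphodiesterases, enzymes that break down cyclic AMP, and also the cytokine MIF. The label of the control says untreated where the protocol has PBS. The name PBS is used for it below. Age and sex of the mice, and how many mice were behind each library, are not given in the sources used here. All mice carried the tumour, so no group without a tumour was compared.

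Each group was 1 droplet-based single-cell library. No difference between the groups therefore has a replicate check, and every ratio compares these libraries. The 95% intervals given with values express counting error alone. Variation among cells and mice is not in them, which makes them too short for a gene whose UMIs sit mostly in few cells. A UMI is a molecular tag that counts 1 captured transcript. The PBS library held 119113794 UMIs over 8968 barcodes (median 11052.5) and the ibudilast library 82196922 over 8483 (median 6809), and 7666 and 6654 cells were kept after filtering. Of all barcodes before filtering, 19 occurred in both libraries, and 0 of them passed a regulatory gate. The labels call the sorted cells lymphocytes, but 1502 PBS and 1242 ibudilast cells passed the macrophage gate.

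Regulatory T cells are CD4 T cells that restrain other immune cells, and they gather in many tumours. The transcription factor Foxp3 defines them. Their high-affinity IL-2 receptor, of which Il2ra encodes the alpha chain, binds IL-2 that neighbouring T cells secrete and signals through STAT5. Regulatory cells that have settled in tissues often carry the IL-33 receptor Il1rl1 and the integrin chain Itgae and secrete the suppressive cytokine Il10 and the growth factor Areg, which is linked to tissue repair, also in the injured brain.

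Promoter sequences are shown for 3 members, as examples of which letter patterns tied to these factors lie beside their starts. The windows run from 250 bases before to 50 bases after an annotated start on GRCm38.p6, from RefSeq. Entries matched 6 of the 10 members, with 8 windows in all. Ikzf2, Ikzf4, Il10 and Itgae had none. Capitals mark the matches. The motif of STAT5 was searched as TTCNNNGAA. For GATA factors the letters were AGATAA and for Runx factors they were TGTGGT. The forkhead motif was spelled TGTTTAC and the cAMP response element TGACGTCA. Each was searched on both strands. No motif overlapped another within these windows. The Foxp3 window lies at chrX:7580233-7580532 (plus strand, the second of 2), the Areg window at chr5:91139349-91139648 (plus strand) and the Il1rl1 window at chr1:40439379-40439678 (plus strand, the second of 2 windows of that gene).
Foxp3: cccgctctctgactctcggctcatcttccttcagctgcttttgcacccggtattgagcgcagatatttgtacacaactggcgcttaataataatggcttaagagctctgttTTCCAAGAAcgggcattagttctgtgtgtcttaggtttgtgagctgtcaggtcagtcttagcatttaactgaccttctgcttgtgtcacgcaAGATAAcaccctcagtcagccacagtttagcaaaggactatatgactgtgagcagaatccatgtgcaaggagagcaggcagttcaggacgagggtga
Areg: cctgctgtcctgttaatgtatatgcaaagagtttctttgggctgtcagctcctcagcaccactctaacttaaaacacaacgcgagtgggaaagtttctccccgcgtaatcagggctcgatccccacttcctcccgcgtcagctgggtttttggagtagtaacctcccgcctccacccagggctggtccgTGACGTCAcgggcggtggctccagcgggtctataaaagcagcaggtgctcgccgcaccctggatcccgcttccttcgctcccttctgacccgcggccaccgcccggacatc
Il1rl1: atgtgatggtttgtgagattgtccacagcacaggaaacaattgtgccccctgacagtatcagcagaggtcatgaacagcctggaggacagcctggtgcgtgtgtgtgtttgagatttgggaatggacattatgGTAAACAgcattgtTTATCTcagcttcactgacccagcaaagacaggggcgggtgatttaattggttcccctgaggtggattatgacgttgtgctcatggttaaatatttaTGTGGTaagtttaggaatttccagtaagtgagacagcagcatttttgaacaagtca
The Foxp3 window held the STAT5 letters 139 bases and the GATA letters 47 bases before the start. Of 32851 windows of this length over all genes, 8.3% and 11.2% held these motifs. Areg carried the full cAMP response element 61 bases before its start, as 1.79% of the windows did. That element is the letter pattern of factors that respond to cyclic AMP, the messenger that phosphodiesterases break down. In the Il1rl1 window the forkhead letters lay 117, the GATA letters 103 and the Runx letters 6 bases before the start, the first 2 of them read on the minus strand. The forkhead motif, Foxp3 being a forkhead factor, was found in 3.65% and the Runx motif in 16.8% of windows. These are matches of letters, not sites of binding. Neither Il2ra nor Capg held any of the 5 motifs in its windows, and the first Foxp3 window, not printed here, held none either.

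Cells were sorted into gates by their UMIs. A CD4 T cell needed at least 2 UMIs over Cd3d, Cd3e and Cd3g, at least 1 of Cd4, none of Cd8a, Cd8b1 or Ncr1, and under 0.1% of its UMIs on C1qa, C1qb and C1qc, macrophage genes of the complement C1q. A regulatory cell had a Foxp3 UMI and a conventional cell none, so Foxp3 itself sets this split and its ratio between the gates is no result. This strict gate left 19 PBS and 32 ibudilast regulatory cells (median 12347 and 7704 UMIs), 51 and 62 conventional cells (8497 and 7388), 144 and 335 CD8 T cells (9156 and 8570), and 93 and 212 NK cells (9018 and 4979). The C1q limit took out most Foxp3-positive T cells. Of 263 PBS and 265 ibudilast T cells with a Foxp3 UMI, 68.8% and 65.7% had 0.3% or more of their UMIs on C1q. Over all T cells the median C1q share was 0.580% in PBS and 0.317% in ibudilast. A wider gate, set after the data were seen, takes cells under 0.3% and asks for no Cd4 UMI in regulatory cells. It held 70 PBS and 68 ibudilast regulatory cells (median 8670 and 7472 UMIs) and 114 and 93 conventional cells. Values are from the strict gate unless the wider one is named.

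Transcripts of other cell types differed between the libraries within the regulatory gate. Levels are given in CPM, the UMIs of a gene scaled to a fixed total of UMIs in the gate. The summed level of 6 macrophage markers was 1180 CPM in PBS and 5413 CPM in ibudilast regulatory cells, with 4 of 6 higher in ibudilast and none at 0 in either. In the wider gate these sums were 4283 and 4994 CPM. Both oligodendrocyte markers were also higher in ibudilast (25.7 and 383 CPM summed, with 1 of the 2 at 0 in PBS), and both red cell markers were at 0 in PBS and at 49.97 CPM summed in ibudilast. Cd8a and Cd8b1 were at 0 by the gate. Cycling cells, with at least 2 UMIs over Mki67 and Top2a, made up 52.6% of PBS and 28.1% of ibudilast regulatory cells. Such a cut depends on depth, and the PBS cells were deeper (median 12347 against 7704 UMIs). In the wider gate the shares were 37.1% and 23.5%. The CPM ratio of ibudilast over PBS for both markers summed was 0.395 in the strict and 0.768 in the wider gate. The part of these differences in the ratios between libraries below was not tested.

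Against conventional CD4 cells of the same library, 6 of the 8 other members with at least 20 UMIs were more than 2-fold higher in PBS regulatory cells, where 6.83% of all genes with that many UMIs were. In the ibudilast library it was 6 of 9 members against 5% of all genes. No member was 2-fold lower, against 9.78% and 6.72% of all genes. The median log2 ratio of the members was 1.26 in PBS and 1.24 in ibudilast, and that of all genes 0.02 and 0.01. In both libraries the genes higher in regulatory cells included Il2ra, Ikzf2, Izumo1r, Il1rl1 and Itgae. Il10 was past 2-fold in PBS (2.03) and not in ibudilast (1.23), and Areg was at 5.75 in ibudilast and had under 20 UMIs in PBS. Whether these ratios differ between the libraries was not tested. Ikzf4 and Capg stayed under 2-fold in both in the strict gate. The wider gate gave 6 of 9 members higher in each library, against 5.04% of all genes in PBS and 4.07% in ibudilast, but not the same 6. In PBS Ikzf4 was past 2-fold there (2.57, interval 1.77 to 3.78) and Il10 was not, and in ibudilast Il10 was (2.41) and Ikzf2 was just short (1.99). In that gate 1 member, Areg, was lower in PBS and 0 were in ibudilast, against 5.91% and 4.74% of all genes.

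**Figure D1:**
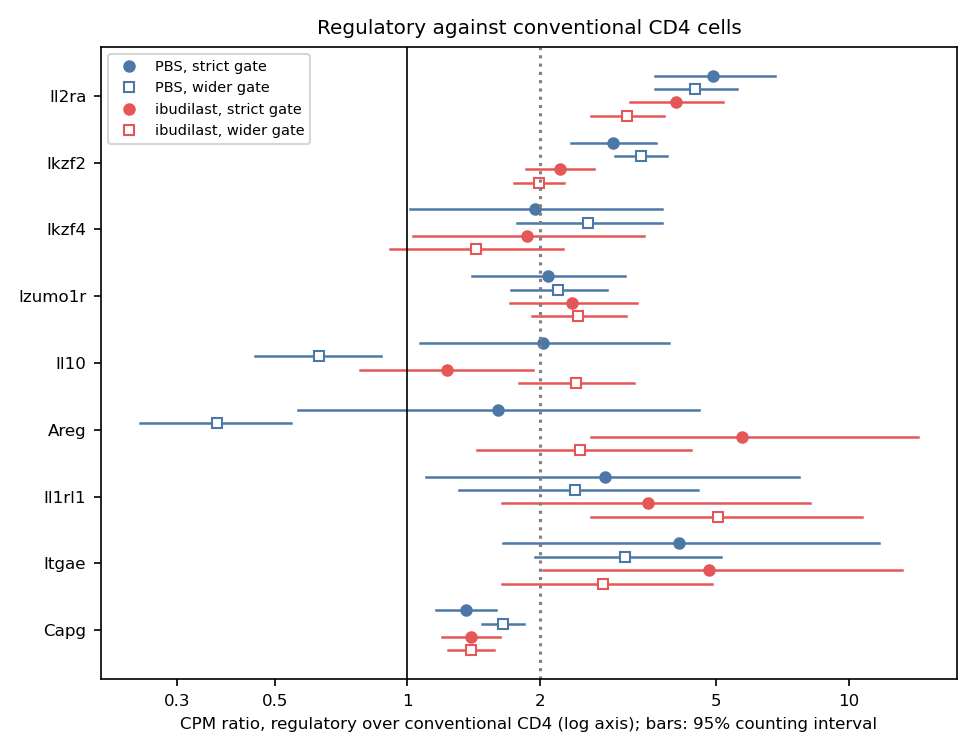
Ratio of CPM in regulatory over conventional CD4 cells for the 9 members other than Foxp3 (log axis), in each library and gate, with 95% counting intervals and a dotted line at 2-fold. Il2ra (4.94 in PBS and 4.06 in ibudilast, strict gate) and Itgae (4.13 and 4.83) lie beyond the line in both libraries, while Il10 and Areg change side of 1 between gates in the PBS library.

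Foxp3 (chromosome X, 7573644 to 7595245, GENCODE M21 on GRCm38) reached 212 CPM in PBS and 224 CPM in ibudilast regulatory cells, from 66 and 94 UMIs. Of all kept cells, 304 PBS and 339 ibudilast cells had a Foxp3 UMI, so most of the carriers lay outside this strict gate. Under the same C1q limit, few cells of the CD8 and NK gates carried it. In CD8 cells 2 of 144 PBS and 7 of 335 ibudilast cells had a UMI, and in NK cells 1 of 93 and 3 of 212. Monocytes, which should lack the gene, had it in 0 of 219 and 0 of 335 cells, with intervals up to 1.67% and 1.10% and median depths of 8520 and 7614 UMIs. In macrophages it was seen in 0.799% and 1.45% of cells. The CD8 shares were 1.39% (interval 0.169 to 4.93%) and 2.09% (interval 0.844 to 4.26%), and whether they exceed background was not tested. The gene overlaps Flicr on the same strand, so UMIs of the pair cannot be told apart here.

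A gate that did not use Foxp3 gave a second view of it. Among strict CD4 cells with a UMI of both Il2ra and Ikzf2, 17 of 35 PBS cells (48.6%, interval 31.4 to 66.0%) and 32 of 51 ibudilast cells (62.7%, interval 48.1 to 75.9%) carried Foxp3. Of cells with neither, 0 of 12 and 0 of 16 did, with intervals up to 26.5% and 20.6%. Median depths were 12347 and 7396 UMIs in the first set and 8266 and 5484 in the second. Izumo1r was present in 60% and 70.6% of cells with both genes and in 25% and 25% of cells with neither. With each cell thinned to an equal number of UMIs, the PBS shares were nearly level, at 20% with both genes and 16.7% with neither. The ibudilast shares stayed apart after thinning, at 32% and 6.67%. The unthinned Izumo1r level was 167.5 against 42.1 CPM in PBS and 214.2 against 66.8 CPM in ibudilast. The remaining cells with both genes had no Foxp3 UMI and count as conventional cells elsewhere.

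As a share of gated CD4 cells, the regulatory cells were 27.1% in PBS (19 of 70, interval 17.2 to 39.1%) and 34.04% in ibudilast (32 of 94, interval 24.6 to 44.5%). These intervals overlapped. Under the 0.3% limit with a Cd4 UMI required the shares were 26.9% (42 of 156) and 33.1% (46 of 139). After each cell was thinned to 2000 UMIs they were 8.57% (6 of 70) and 15.2% (14 of 92), since a single Foxp3 UMI is often lost. The ibudilast share was the higher one each time, but no difference could be detected beyond counting error.

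Il2ra (chromosome 2, 11642807 to 11693193) is the chain that regulatory cells carry at high level. Its level was 552 CPM in PBS and 664 CPM in ibudilast regulatory cells. Conventional cells had 112 and 164 CPM, CD8 cells 68.6 and 58.4 CPM and NK cells 20.8 and 22.3 CPM, and within each library the intervals of these 4 gates did not overlap. A UMI was present in 18 of 19 and 32 of 32 regulatory cells, and in 25 of 51 and 27 of 62 conventional cells. Regulatory over conventional ratios were 4.94 (interval 3.63 to 6.80) and 4.06 (interval 3.198 to 5.189). Outside the T cells, migratory dendritic cells were the highest of the well-sampled gates, at 101 and 146 CPM with a UMI in 46.8% and 46.6% of cells.

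Izumo1r (chromosome 9, 14885814 to 14903949) encodes folate receptor 4, a surface protein of regulatory and of some activated or anergic CD4 cells. It stood at 196 CPM in PBS and 250 CPM in ibudilast regulatory cells, found in 14 of 19 and 25 of 32 cells. Conventional cells held 93.8 and 106 CPM, CD8 cells 6.07 and 17.3 CPM, and NK cells 2.18 and 0.768 CPM. Its ratio to conventional cells was 2.09 and 2.37, and to CD8 cells 32.2 and 14.5. No gate outside the T cells reached 5 CPM.

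Ikzf2 (chromosome 1, 69531214 to 69687245, minus strand) encodes Helios, an Ikaros-family factor that stabilises regulatory cells. Regulatory cells had 741 CPM in PBS and 792 CPM in ibudilast. Conventional cells had 253 and 357 CPM, CD8 cells 80.8 and 101 CPM, and NK cells 56.8 and 59.1 CPM. All but 1 of the PBS and all 32 ibudilast regulatory cells carried it, against 32 of 51 and 38 of 62 conventional cells. The ratio to conventional cells was 2.92 (interval 2.34 to 3.66) in PBS and 2.22 (1.86 to 2.66) in ibudilast. Basophils or mast cells also carried it, at 196 and 164 CPM.

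Ikzf4 (chromosome 10, 128630843 to 128645991, minus strand) encodes Eos, a partner of Foxp3 in gene silencing. Its level was 73.8 CPM in PBS and 69.0 CPM in ibudilast regulatory cells, from 23 and 29 UMIs. Conventional cells had 37.9 and 36.9 CPM and CD8 cells 27.3 and 27.2 CPM, with overlapping intervals, and NK cells only 5.46 and 5.38 CPM. The ratios to conventional cells, 1.95 and 1.87, had intervals from just above 1 (1.01 and 1.03) to 3.78 and 3.45. Migratory dendritic cells held as much as regulatory cells in PBS, 71.6 CPM, and 41.8 CPM in ibudilast. Ikzf2 and Ikzf4 each overlap a gene on the other strand, and whether the counting used strand could not be read from the sources used here.

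**Figure D2:**
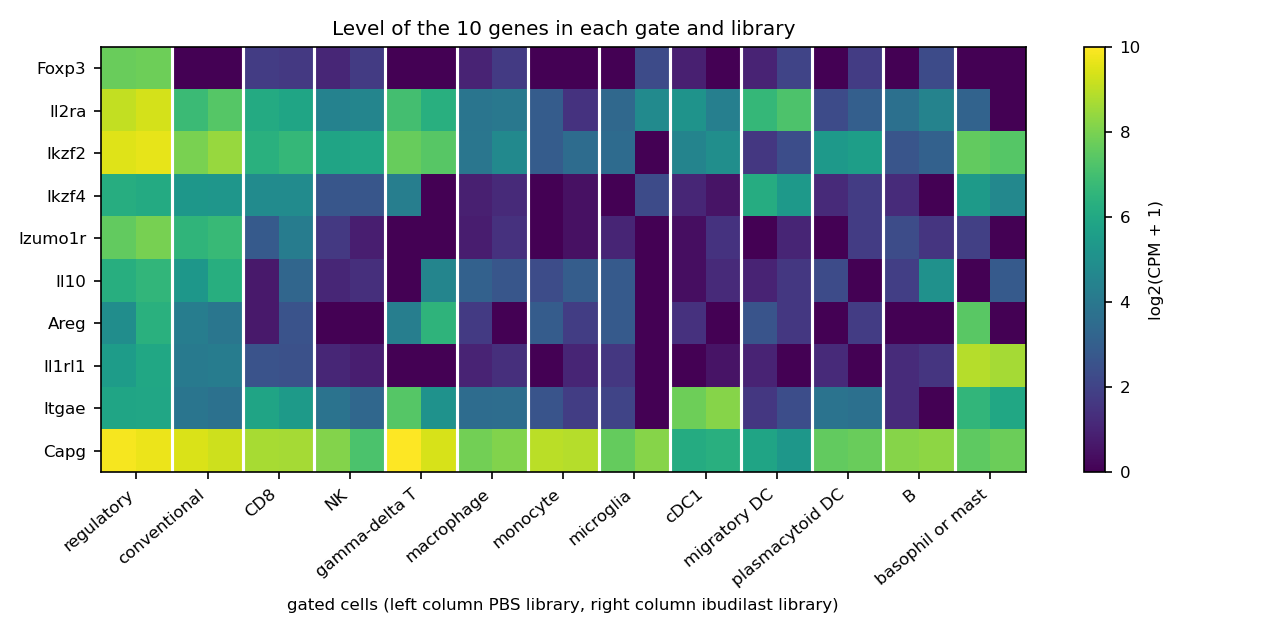
Level of the 10 genes, as log2(CPM + 1), in 13 gates, with the PBS library in the left and the ibudilast library in the right column of each pair. Il2ra, Ikzf2 and Izumo1r are brightest in regulatory cells, whereas Il1rl1 is brightest in basophils or mast cells and Itgae in cDC1.

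Il10 (chromosome 1, 131019845 to 131024974), a suppressive cytokine, came from few cells. In PBS 4 of 19 and in ibudilast 9 of 32 regulatory cells held all of its UMIs, 24 and 40, which gave 77.0 and 95.2 CPM. Conventional cells had 37.9 and 77.4 CPM, from 5 of 51 and 7 of 62 cells. NK cells had 1 and 2 UMIs, and CD8 cells had 1 UMI in PBS but 32 in ibudilast, in 5 of 335 cells. The highest single cells carried 13 PBS and 14 ibudilast UMIs in the regulatory gate, and 12 and 20 in the conventional gate. In the wider gate the order of regulatory and conventional cells turned in PBS: 69.6 against 110 CPM (ratio 0.630, interval 0.451 to 0.872). In ibudilast the wider gate gave 196.5 against 81.7 CPM (ratio 2.41, interval 1.79 to 3.27).

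Areg (chromosome 5, 91139599 to 91148432), the EGF-receptor ligand amphiregulin, was as uneven. PBS regulatory cells had 9 UMIs in 4 of 19 cells (28.9 CPM) and ibudilast regulatory cells 34 UMIs in 6 of 32 cells (80.9 CPM), 13 of them in 1 cell. Conventional cells had 18.0 and 14.1 CPM, CD8 cells 0.607 and 4.94 CPM, and NK cells 0 UMIs of 915751 and 1302446. Of the 18 UMIs in ibudilast CD8 cells, 17 lay in 1 cell. In the wider gate the PBS conventional cells had 113 UMIs, of which 68 were in a single cell, and stood above regulatory cells (115 against 42.5 CPM, ratio 0.371). Of 64 Areg UMIs in PBS basophils or mast cells, 55 were likewise in 1 cell.

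Il1rl1 (chromosome 1, 40429570 to 40465415), the receptor for IL-33, was at 44.9 CPM in PBS and 61.9 CPM in ibudilast regulatory cells, in 5 of 19 and 10 of 32 cells. Conventional cells had 16.0 and 17.6 CPM, CD8 cells 4.86 and 4.66 CPM and NK cells 1 UMI in each library. The ratio to conventional cells was 2.81 (interval 1.10 to 7.74) in PBS and 3.52 (1.64 to 8.17) in ibudilast. Basophils or mast cells, long known for this receptor, exceeded regulatory cells with 473 and 406 CPM, and 52 of 68 and 23 of 30 of them had a UMI. No other gate outside the T cells reached 5 CPM.

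Itgae (chromosome 11, 73090583 to 73147446) encodes the alpha E integrin chain CD103, which pairs with the beta chain of Itgb7 to bind E-cadherin. Regulatory cells had 57.7 and 59.5 CPM, in 7 of 19 PBS and 13 of 32 ibudilast cells. CD8 cells were level with them, at 56.5 and 42.5 CPM (ratio regulatory over CD8 1.02, interval 0.581 to 1.71, and 1.40, interval 0.878 to 2.14). Conventional cells had 13.97 and 12.3 CPM, and NK cells 13.1 and 9.21 CPM. Among dendritic cells, cDC1 carried 222 and 288 CPM, in 50.9% and 68.7% of cells. The gene holds Haspin on the other strand.

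Capg (chromosome 6, 72544391 to 72562983) encodes an actin-capping protein known from macrophages and from regulatory cells of tissues. All 19 PBS and all 32 ibudilast regulatory cells carried it, at 943 and 845 CPM. It was also plentiful in conventional cells (694.5 and 605 CPM), CD8 cells (416 and 405 CPM) and monocytes (504 and 474 CPM), and was lower in macrophages (236 and 279 CPM) and migratory dendritic cells (56.3 and 38.6 CPM). Regulatory over conventional ratios were 1.36 (interval 1.16 to 1.59) and 1.396 (interval 1.2 to 1.624). Gamma-delta T cells, only 9 and 16 cells, had 1030 and 671 CPM.

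**Figure D3:**
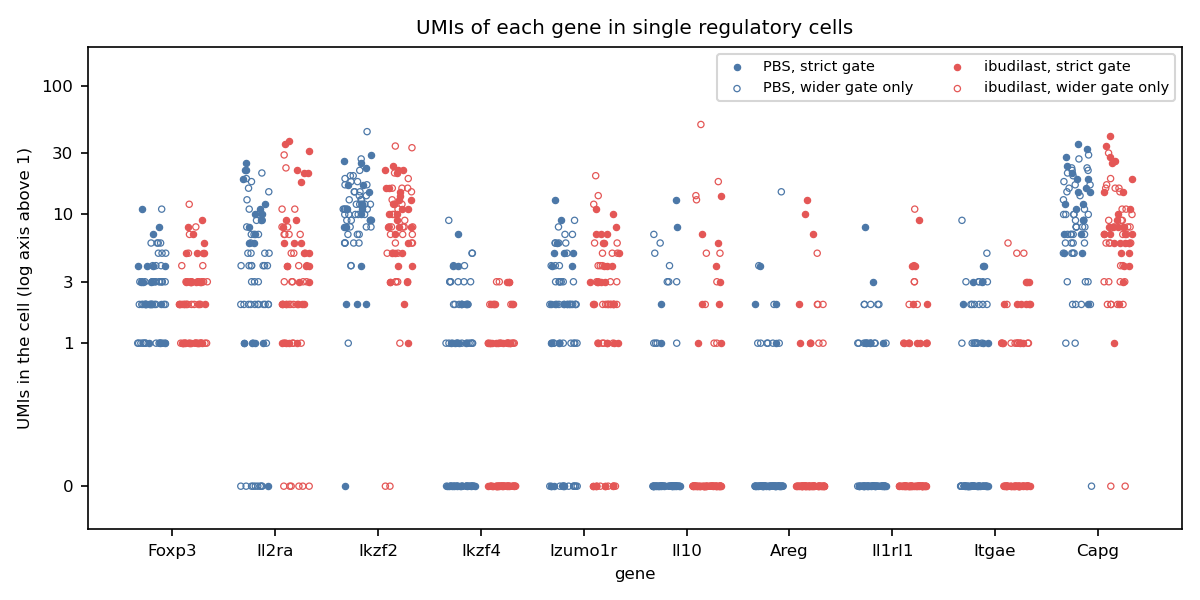
UMIs of each gene in single regulatory cells (log axis above 1), with filled points for the strict and open points for cells added by the wider gate. Ikzf2, Il2ra and Capg were present in nearly every cell, while Il10, Areg and Il1rl1 were at 0 in most cells and high in a few, up to 50 UMIs of Il10 in 1 ibudilast cell.

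Between the libraries, most of these genes lay within 1.5-fold in regulatory cells. With a limit of 1.5-fold and at least 20 UMIs, 1 of 10 members was higher in ibudilast and 0 were lower, where 16.6% of all genes were higher and 13.3% lower. The member was Areg, with a ratio of 2.80 (interval 1.32 to 6.65) that rested on 9 and 34 UMIs. As a share of the members this is below that of all genes. Foxp3, which the gate used, had a ratio of 1.06 (interval 0.763 to 1.47). Il2ra was at 1.203 (0.992 to 1.46), Izumo1r at 1.28 (0.923 to 1.78), Ikzf2 at 1.07 (0.902 to 1.27) and Ikzf4 at 0.936 (0.523 to 1.69). The cytokine Il10 had 1.24 (0.727 to 2.14), Il1rl1 1.38 (0.694 to 2.86), Itgae 1.03 (0.540 to 2.00) and Capg 0.896 (0.765 to 1.05). Each of these 9 intervals held 1.

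The wider gate called other genes, with 2 of 10 members higher and 1 lower where 11.7% and 8.39% of all genes were. Il10 went from 69.6 to 196.5 CPM (ratio 2.82, interval 2.08 to 3.88), and was still 2.43 with the top cell of each library left out. It lay in 15 of 70 PBS cells and 19 of 68 ibudilast cells, so the level per positive cell differed more than their number. Il1rl1 was at 41.3 and 69.8 CPM (ratio 1.69, interval 1.08 to 2.67), in 21 of 70 and 19 of 68 cells. Ikzf4 was lower, 112 and 64.6 CPM (ratio 0.577, interval 0.401 to 0.821), in 39 of 70 and 32 of 68 cells. Areg, called in the strict gate, was at 42.5 and 62.1 CPM in the wider one (ratio 1.46, interval 0.929 to 2.32), in 13 of 70 and 13 of 68 cells. Foxp3 had a ratio of 1.002 there. No member passed 1.5-fold in the same direction in both gates.

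**Figure D4:**
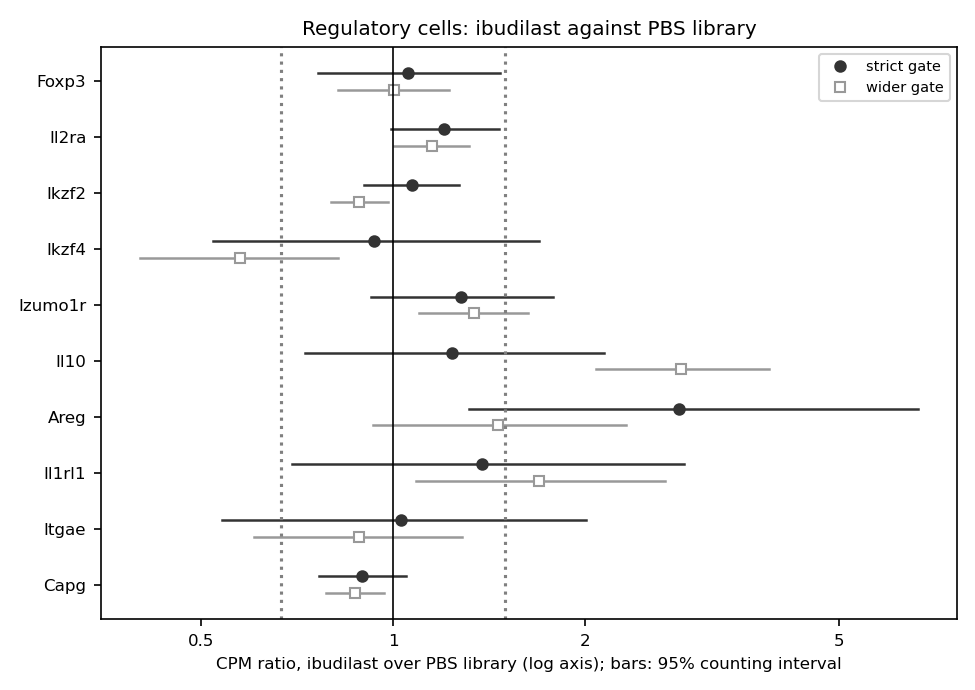
Ratio of CPM in ibudilast over PBS regulatory cells for the 10 members (log axis), in the strict and the wider gate, with 95% counting intervals and dotted lines at 1.5-fold in either direction. Most genes lie between the lines in both gates, and Areg, Il10, Il1rl1 and Ikzf4 cross a line in 1 gate each.

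In each of the other gates only 4 to 8 members had enough UMIs, and 1 or 2 of them passed 1.5-fold between libraries. Such counts are too small to set firmly against the shares of all genes. Conventional cells had 1 of 6 members higher, Il10 (37.9 and 77.4 CPM, ratio 2.04, interval 1.17 to 3.70), where 13% of genes were higher and 9.04% lower. That ratio was 0.739 in the wider gate, so its direction depended on the C1q limit. CD8 cells had 2 of 8 higher against 9.21% of genes, and 0 lower against 4.87%. Izumo1r was at 6.07 CPM in PBS and 17.3 CPM in ibudilast CD8 cells (ratio 2.85, interval 1.45 to 6.22), in 6 of 144 and 33 of 335 cells, and its wider-gate ratio was 2.23. The Il10 ratio of CD8 cells, 14.5 (interval 2.42 to 589), set 32 UMIs against 1. Itgae in CD8 cells was 0.753 (interval 0.579 to 0.985) and passed the limit in the wider gate only (0.596, interval 0.483 to 0.736). Its share of CD8 cells was 26.4% and 15.5%. In NK cells 1 of 4 members was lower against 9.57% of genes, Capg, with 287 and 144 CPM (ratio 0.503, interval 0.415 to 0.608), and 0 were higher against 12.3%. NK cells of the ibudilast library were also shallower. Their summed neutrophil markers were at 466 CPM in PBS and 0.768 CPM in ibudilast, with 0 and 1 of the 2 genes at 0, their NK markers at 6101 and 11298 CPM, and their red cell markers at 10.9 and 415 CPM. The part of these in the Capg ratio was not tested.

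The wider gate was read in the same way for these cells. In conventional cells 2 of 9 members were higher, Il2ra (ratio 1.64, interval 1.27 to 2.12) and Ikzf2 (1.51, interval 1.29 to 1.77), against 11.1% of genes. Areg was the 1 lower member, with 113 PBS and 20 ibudilast UMIs (ratio 0.219, interval 0.129 to 0.355), against 8.16% of genes. Without the top cell of each library, the PBS one holding 68 of those UMIs, the Areg ratio was 0.358. CD8 cells again had Izumo1r and Il10 as 2 of 9 higher members against 7.93% of genes, and Itgae as the 1 lower against 3.32%. NK cells had Capg as 1 of 4 lower (0.542, interval 0.457 to 0.641) against 8.97%, and 0 higher against 9.88%.

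Single regulatory cells carried more of the members than cells of the other gates. Of the 9 genes other than Foxp3, a regulatory cell carried a median of 5 in PBS and 6 in ibudilast, against 3 and 3 in conventional, 2 and 2 in CD8 and 1 and 1 in NK cells. At least 5 were present in 13 of 19 PBS (68.4%, interval 43.5 to 87.4%) and 24 of 32 ibudilast regulatory cells (75%, interval 56.6 to 88.5%). Conventional cells reached that in 5.88% and 16.1%, CD8 cells in 3.47% and 2.39%, and NK cells in 1.08% and 0% (0 of 212, interval up to 1.72%). With every cell thinned to 2000 UMIs the mean number was 3.11 and 3.38 in regulatory, 1.61 and 1.73 in conventional, 0.930 and 0.940 in CD8 and 0.570 and 0.236 in NK cells. The order of the gates was thus the same at equal depth.

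**Figure D5:**
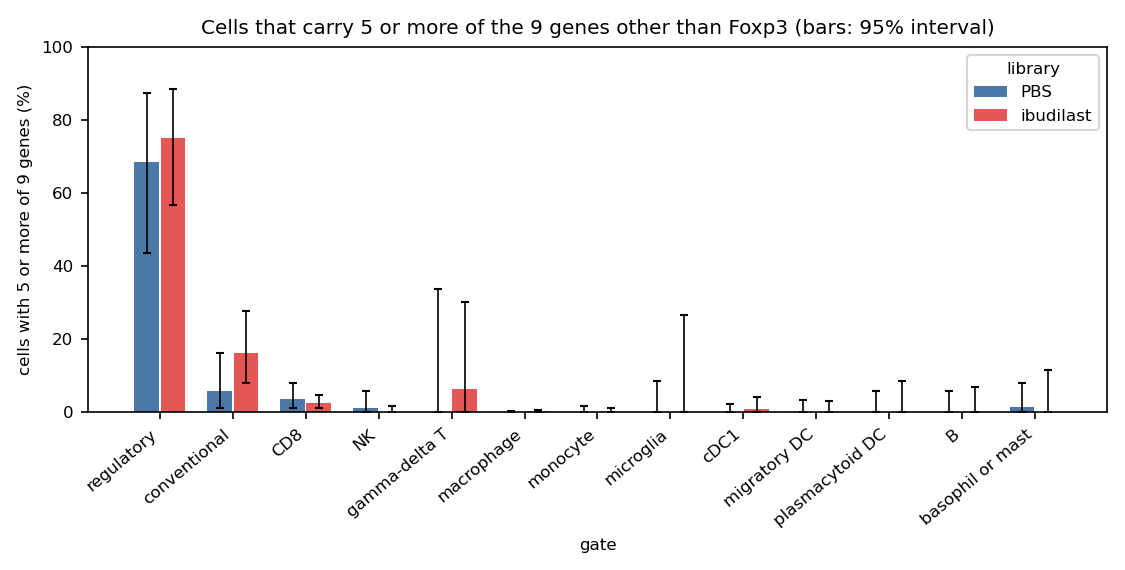
Share of cells in each gate that carried at least 5 of the 9 members other than Foxp3, by library, with 95% binomial intervals. Regulatory cells stand at 68.4% and 75%, and every other gate is at 16.1% or less.

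The overlap of the effector genes was read cell by cell in the wider gate. Of Il10-positive PBS cells 3 of 15 also carried Areg, and 10 of 55 Il10-negative ones did, nearly the same share (20% and 18.2%). In ibudilast 0 of 19 Il10-positive cells carried Areg (interval up to 17.65%), against 13 of 49 Il10-negative ones. All 19 Il10-positive ibudilast cells carried Izumo1r, and 36 of 49 Il10-negative cells did. In PBS those were 13 of 15 and 41 of 55. Of Il10-positive ibudilast cells 9 of 19 carried Il1rl1, against 10 of 49 Il10-negative ones, whereas in PBS it was 3 of 15 against 18 of 55. Il10-positive cells had a median of 9526 UMIs in ibudilast, above the 7192 of the rest, and 8576 against 8704 in PBS. No test was made on these cells, which share 1 library each.

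Genes of the same pathways outside the members gave a mixed picture. Of 16 genes of regulatory surface and suppression, 12 were counted well enough in PBS, with 2 past 2-fold higher and 2 lower than in conventional cells. In ibudilast it was 3 higher and 1 lower of 13. Among all genes 6.83% were higher and 9.78% lower in PBS, and 5% and 6.72% in ibudilast, and the counts of the lists below are read against the same shares. Tnfrsf4 (OX40) had 1398 and 1501 CPM in regulatory cells, at ratios of 2.49 and 1.97 to conventional cells, and Tnfrsf18 (GITR) ratios of 1.99 and 1.54. Tnfrsf9 (4-1BB) was at 1.35 and 1.94, and the costimulator Icos at 0.952 and 1.35. In the list of 8 receptors and partners, 1 of 4 was higher in each library and none lower. It was Itgb7, the partner chain of Itgae, with 337 and 259 CPM (ratios 3.31, interval 2.35 to 4.72, and 2.46, interval 1.78 to 3.43). The IL-10 receptor chains Il10ra and Il10rb had ratios of 1.61 and 1.01, and 0.631 and 1.03, and the IL-33 receptor adaptor Myd88 0.737 and 1.07.

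The other chains of the IL-2 receptor lay near or below the level of conventional cells. Of 12 IL-2 signalling genes, 11 were counted well enough in each library, 0 were 2-fold higher and 1 was lower in each. Il2rb had ratios of 0.889 and 1.04 and Il2rg, the shared gamma chain, 0.686 and 0.676. The kinase Jak1 stood at 0.697 and 0.826, and Cish, a feedback gene of STAT5, at 0.573 and 0.975. Among the 5 Ikaros-family genes, only Ikzf2 passed 2-fold upward, and Ikzf1, which encodes Ikaros itself, passed it downward in ibudilast (ratios 0.670 and 0.421). Ikzf3 (Aiolos) was at 1.93 and 1.24 and Ikzf5, with 16 UMIs in regulatory cells, at 1.02 and 1.52. These calls depended on the gate. In the wider gate Ikzf2 passed 2-fold upward in PBS only (3.385 and 1.99), and Ikzf1 passed it downward in neither library (0.550 and 0.595). Ikzf4 was past 2-fold there in PBS (2.57) and Ikzf3 in ibudilast (2.06).

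Of 21 transcription factors, 15 were counted in each library, with 2 higher and 2 lower in PBS and 4 higher and 0 lower in ibudilast. Id2 was at 0.475 and 0.668, Maf at 0.892 and 1.77, Batf at 0.775 and 1.202, and Rora at 2.41 in PBS and 0.846 in ibudilast. In the wider gate Rora was at 1.54 and 0.984, so its PBS ratio past 2-fold was lost. The conventional CD4 list lay the other way from the members, with 6 of 8 genes lower in PBS and 4 of 6 in ibudilast and none higher (median log2 ratio -1.88 and -2.59). Ifng, the type 1 cytokine, had 1632 and 967 CPM in conventional cells but 25.7 and 83.3 CPM in regulatory cells. Bhlhe40 had ratios of 0.243 and 0.303, the IL-7 receptor Il7r 0.438 and 0.981, and the chemokine receptor Cxcr3 1.56 and 1.56.

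Over the 26 profiles of 13 gates in both libraries, the genes most like each member were found by Pearson correlation of log2(CPM + 1) among 12915 genes. The profiles share 2 libraries, and several of the genes rest on few UMIs. Foxp3 set the split of regulatory and conventional cells, so its own profile was partly fixed by the gates and its nearest genes are no independent result. Foxp3 was most like Ermn (r = 0.86, 53 UMIs), Igsf23 (0.86) and Tctex1d1 (0.80), Izumo1r most like Ntf5 (0.94), Ccn4 (0.94) and 6330403K07Rik (0.91), and Il10 most like the chemokine receptor Ccr4 (0.80), Kcna4 and A630023P12Rik (both 0.79). For Ikzf2 they were Odc1 (0.92), Lat (0.89) and Slc35d1 (0.88), and for Il2ra Nt5c, Eva1b and Cyld (each 0.87). Ikzf4 was nearest to Mrps6 (0.87), Tesc (0.85) and Rad21 (0.84), and Areg to Gm12840 (0.74), the EGF-receptor ligand Hbegf (0.71) and Espn (0.68). The Il1rl1 profile was nearest to Slc30a2 (0.94, 20 UMIs), Neb (0.90) and Oit3 (0.88), that of Itgae to Alyref (0.74), H2ac10 (0.72) and Churc1 (0.71), and that of Capg to Arhgdib (0.89), Gmfg (0.86) and Aopep (0.85). Among the members themselves r ran from -0.07 (Il10 and Itgae) to 0.70 (Izumo1r and Il10).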

How the data were processed

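The authors deposited unnormalised UMI counts for every gene in every called barcode of 2 libraries. Cell Ranger 6.1.1 made them, per the file headers, and the build was mm10, per the submitters' processing notes. Gene positions are from GENCODE M21 (GRCm38). Kept cells had 300 genes or more, 500 UMIs or more and less than 10% mitochondrial UMIs. Scrublet in scanpy 1.11.5 marked no doublets by its own threshold, so the 6% of cells with the highest scores were left out (489 and 425). Cells were gated by marker UMIs, and barcodes in more than 1 gate were left out (190 and 104). An NK cell needed at least 2 UMIs over Ncr1 and Klrb1c and at most 1 over the CD3 genes, and a CD8 cell at least 2 over the CD3 genes, a Cd8a or Cd8b1 UMI and no Cd4.

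UMIs were summed per gate and library and expressed as CPM of that sum. Intervals are exact: Poisson for sums, Clopper-Pearson for shares and conditional binomial for ratios. Since a group is 1 library, nothing was tested. A ratio was called past 1.5-fold between libraries or 2-fold between gates, with at least 20 UMIs. The ratio script was tested on simulated independent Poisson counts. These had no clumping of UMIs in single cells, so that test does not cover genes such as Il10 and Areg. Named genes are the 10 members, the 4 genes with the most regulatory UMIs of each companion list, all 5 Ikaros genes, and the 3 genes most like each member. The members and lists were chosen with earlier results of these data known. Alternatives covered the gates, doublets, C1q limit, cell filter, weighting, scaling and depth.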

Additional observations from a re-analysis of the deposited data

How the results depend on the processing

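With 19 and 32 regulatory cells, counts of members past 1.5-fold moved easily, and low C1q limits left few UMIs. For ibudilast over PBS in regulatory cells, 1 member was higher, against 0 with Foxp3 at 2 or more UMIs or without a C1q limit, 2 with the Il2ra and Ikzf2 gate, after thinning, at a C1q limit of 0.3% and in the wider gate, 3 with each cell weighted alike and 4 at 0.05%. None was lower, against 1 in the wider gate. Conventional cells had 1 higher, against 0 with the Il2ra and Ikzf2 gate, 2 with cells weighted alike, thinned, at 0.3% or in the wider gate, and 3 at 0.05%. None was lower there, against 1 with the Il2ra and Ikzf2 gate, without a limit, at 0.3% and in the wider gate. CD8 cells had 2 higher, against 1 at 0.05% and 0 thinned, and none lower, against 1 with cells weighted alike, at 0.3% and in the wider gate. NK cells had 1 lower, against 2 with doublet scores not used or cells weighted alike, and none higher, against 1 without a limit. For regulatory over conventional cells in PBS, 6 were higher, against 3 at 0.05% and 2 thinned, and none lower, against 1 at 0.3% and in the wider gate. In ibudilast 6 were higher, against 2 thinned. The regulatory share became 74.5% and 76.1% with the Il2ra and Ikzf2 gate and 8.57% and 15.2% thinned. The first pair has another base, as cells with only 1 of the 2 genes were left out. It set 35 PBS and 51 ibudilast cells with both genes beside 12 and 16 with neither, and is not comparable with the main shares. Turns of direction were counted only for members called in the main setting. Areg turned in regulatory cells without a C1q limit (0.721). Il10 turned in conventional cells without a limit (0.894), at 0.3% (0.739) and in the wider gate (0.739). Il10 regulatory over conventional in PBS turned at 0.3% (0.544) and in the wider gate (0.630). Il1rl1 regulatory over conventional in PBS turned after thinning (0, from 3 UMIs). Members not called could change side of 1 without being counted. Areg regulatory over conventional in PBS, for example, was 1.61 in the strict and 0.371 in the wider gate. Ikzf2 of ibudilast over PBS in regulatory cells was 1.07 and 0.886. The cause was not tested. The 0.3% limit and the wider gate were chosen after seeing the data. Of the values for single genes, 632 stayed within the counting interval, 62 moved and 7, all of called members, turned. No paired analysis was possible because each group is 1 library and the ratios come from no test.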

Other observations

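In the list of regulatory surface and suppression genes, a ratio between the libraries could depend on the gate. Ctla4, an inhibitory receptor of regulatory cells named here after its values were seen, was at 728 CPM in PBS and 338 CPM in ibudilast regulatory cells of the strict gate (ratio 0.464, interval 0.374 to 0.575). In the wider gate it was at 762 and 805 CPM (ratio 1.06, interval 0.946 to 1.18). Klrg1, a receptor of mature regulatory and effector cells also named after the fact, was at 131.5 and 66.6 CPM in strict regulatory cells against 3.99 and 7.04 CPM in conventional cells. Its ratio of ibudilast over PBS was 0.507 (interval 0.302 to 0.839) in strict and 1.13 (interval 0.795 to 1.60) in wider regulatory cells, where it stood at 79.0 and 89.2 CPM. Against strict conventional cells, Ctla4 had ratios of 1.53 in PBS and 0.877 in ibudilast. In the wider gate these ratios were 1.515 in PBS and 1.815 (interval 1.59 to 2.07) in ibudilast, so the ibudilast direction depended on the gate. Nrp1 of the same list lay the other way from Klrg1, at 41.7 and 54.7 CPM in strict regulatory cells against 223.5 and 156.5 CPM in conventional cells.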
